A study of Mus musculus with 5 samples.

Results

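Cholesterol homeostasis genes were examined in livers of E18.5 mouse embryos, late in gestation, as 30 genes named for their roles in making, sensing, moving, storing and exporting cholesterol. All 30 were among the 23022 genes of the deposited comparison, matched by gene symbol. They comprised 18 enzymes of synthesis, 4 genes of sterol sensing and 8 genes of uptake, intracellular transport, esterification and export. The 4N group held 3 livers from Hhex knockout embryos that had been injected at the blastocyst stage with 4N embryonic stem cells positive for td-Tomato, a red fluorescent protein. Hhex encodes a homeobox factor without which no liver forms, and 4N denotes tetraploid cells, with a doubled genome. The WT group held 2 livers from normal embryos of the same day. Ploidy, the origin of the liver cells, the Hhex genotype of the host and the embryo manipulation differed together between the groups and cannot be told apart. The labels give neither the share of host cells left in the 4N livers nor the number of stem cell lines used, nor whether the livers of a group came from separate litters, so the p-values measure the spread between these samples.

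Cholesterol is built in the endoplasmic reticulum and cytosol from acetyl-CoA, by way of mevalonate, farnesyl pyrophosphate, squalene and lanosterol. When sterol in the membrane is low, the transcription factor SREBP2 is escorted by SCAP to the Golgi, is cleaved there and switches on the genes of synthesis and uptake. INSIG proteins hold SCAP back when sterol is plentiful. Excess cholesterol is esterified for storage, passed to apolipoproteins at the plasma membrane, or secreted into bile, a route that in the body belongs to hepatocytes.

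Libraries were made from poly(A) RNA and sequenced. The deposited table gave each gene's mean normalized count over the 5 libraries, its log2 fold change between the groups, the standard error (SE) of that change and a Benjamini-Hochberg adjusted p from the authors' Wald test. No values per liver were used here, so the depth of each library is unknown. All fold changes are given as 4N over WT, a direction inferred from the values because the authors named no numerator. The level of a gene in each group, in normalized counts, was calculated from its deposited mean and fold change and carries no SD. It is approximate, because a fitted fold change need not equal the ratio of the group means exactly. The implied totals per liver were 77600161 normalized counts for 4N and 78880444 for WT. A gene was called at an adjusted p under 0.05. By that rule, calls in 4N liver went up for 7.94% of all genes and down for 7.41%. For the 8656 genes whose mean reached 1000, a range that held 29 of the 30 cholesterol genes, these shares were 11.9% up and 10.3% down. Of all calls 51.7% were thus higher, and recentring on secreted plasma proteins made that 88.1%. With a t distribution of 3 degrees of freedom, which these 5 livers leave, in place of the normal one, 0 genes of the table were called, so no call given below was kept under it.

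Most enzymes of cholesterol synthesis were higher in 4N liver, along the whole pathway, with 1 late enzyme lower. Of the 18 synthesis genes, 13 rose, 1 fell and 4 did not pass the test, so 72.2% were called higher against 7.94% of all genes and 11.9% of those whose mean reached 1000. Tested against a 1.5-fold change, 521 of all 23022 genes were higher and 588 lower. Of the 18 synthesis genes, 4 were higher and 0 lower in that test. Their median log2 fold change was 0.89, and that of all genes was 0.00. Together they held 0.216% of the summed normalized counts in 4N livers and 0.113% in WT livers. Of the 8 genes of uptake, transport, esterification and export, 2 rose, 1 fell and 5 did not pass, with a median of 0.16. The share of these 8 genes called higher was 25.0%. Recentring on secreted plasma proteins raised the number of genes called higher from 1828 to 6464 of all 23022. After it, 17 synthesis genes were higher, with a median of 1.44. So were 5 of the 8 genes of uptake, transport, esterification and export, with a median of 0.72. Whether the 2 groups of genes differ was not tested.

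**Figure D1:**
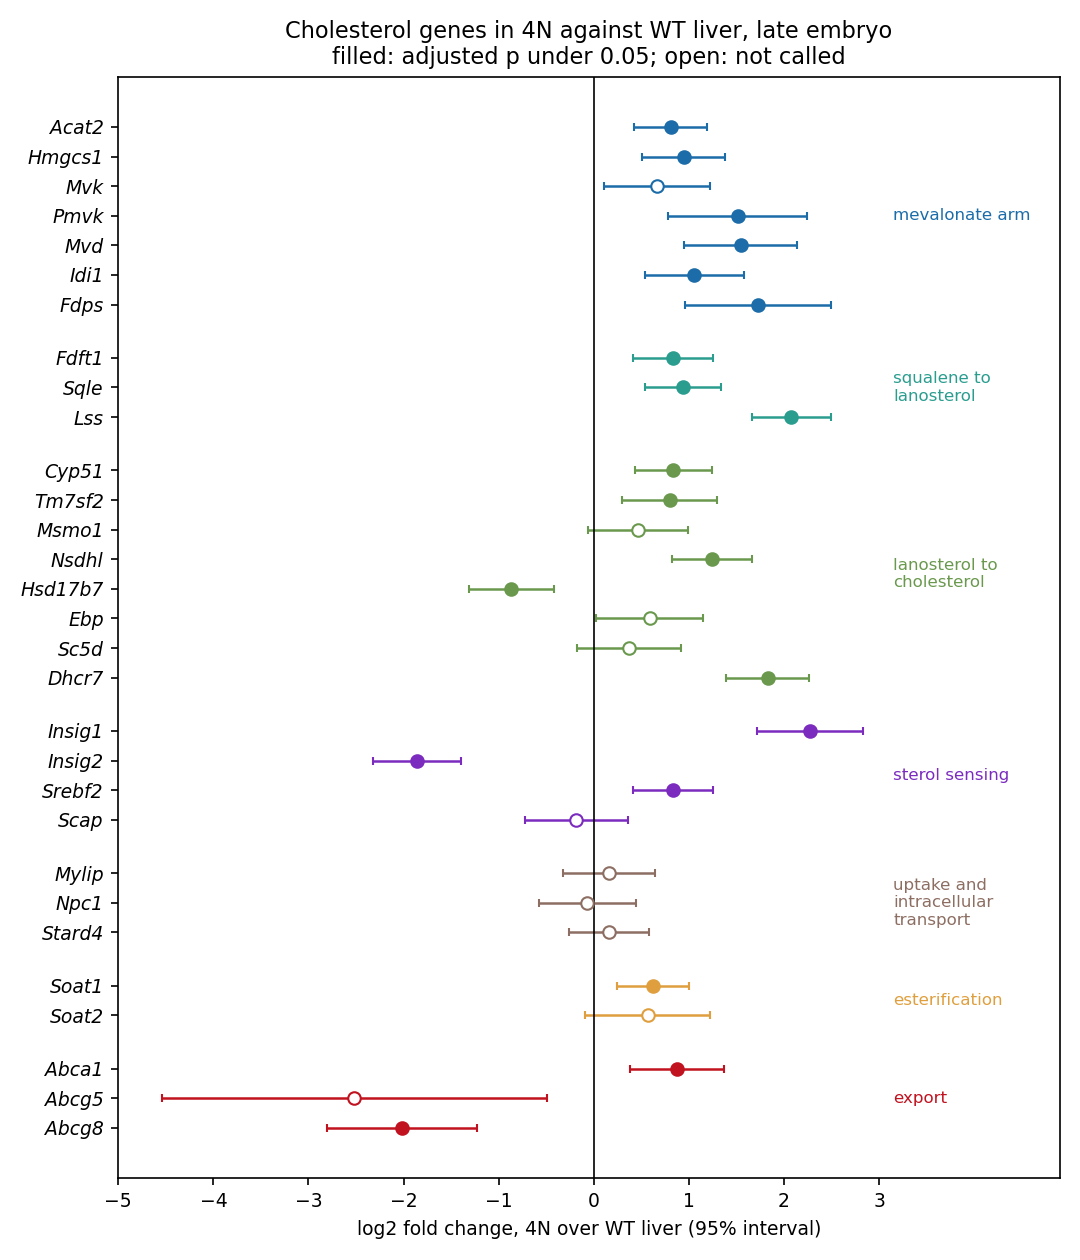
Log2 fold change of each cholesterol gene, 4N over WT liver, with its 95% interval from the deposited standard error, in pathway order from top to bottom. Filled points passed an adjusted p of 0.05. Points of the synthesis enzymes lie to the right of 0 except Hsd17b7 at -0.87, Insig1 and Insig2 lie on opposite sides, and Abcg5 and Abcg8 lie far to the left, Abcg5 with an interval of -4.54 to -0.49.

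The mevalonate arm, which turns acetyl-CoA into farnesyl pyrophosphate, had 6 of 7 enzymes called higher and 0 lower, with a median log2 fold change of 1.06. Acat2, which condenses acetyl-CoA units, had 7404 normalized counts in 4N livers and 4220 in WT livers (log2 fold change 0.81, SE 0.20, adjusted p = 0.00054 per the authors' deposited table). Hmgcs1, the cytosolic HMG-CoA synthase, reached 32428 in 4N livers against 16816 in WT livers (0.95, SE 0.22, adjusted p = 0.00037, authors' deposited table). These genes were thus raised just under 2-fold, by 1.75-fold and 1.93-fold. Mvk, the mevalonate kinase, was the 1 enzyme of this arm not called, at 1943 normalized counts in 4N livers and 1228 in WT livers (0.66, SE 0.28, adjusted p = 0.10, authors' deposited table). The enzymes that follow it had larger estimates. Pmvk, the phosphomevalonate kinase, stood at 2949 normalized counts in 4N livers and 1032 in WT livers (1.51, SE 0.37, adjusted p = 0.00073, authors' deposited table). Mvd, the decarboxylase that yields isopentenyl pyrophosphate, stood at 2645 in 4N livers and 907 in WT livers (1.54, SE 0.30, adjusted p = 9.2e-06, authors' deposited table). Both were about 2.9-fold higher in 4N livers (2.86-fold and 2.92-fold). Idi1, the isopentenyl pyrophosphate isomerase, had 6638 normalized counts in 4N livers and 3185 in WT livers (1.06, SE 0.26, adjusted p = 0.00088, authors' deposited table).

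Fdps, the farnesyl pyrophosphate synthase, had the lowest mean of all 30 genes, at 632 normalized counts in 4N livers and 191 in WT livers. The authors' deposited table gave its log2 fold change as 1.73 (SE 0.39, adjusted p = 0.00020), and it was called higher. The annotation places the exons of the coding gene Gm43738 over those of Fdps on the same strand, so reads of Fdps may have been split or dropped in counting and its value is uncertain. In GENCODE M21, 11 of the 30 genes share exon bases with another gene, and the strand setting of the counting is not given in the sources used here. Among these, Fdft1 overlaps the abundant protease gene Ctsb, Cyp51 overlaps Akap9 and Tm7sf2 overlaps Vps51. None of these 3 neighbours was called (log2 fold changes of 0.32, -0.38 and 0.11, authors' deposited table).

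All 3 enzymes that carry farnesyl pyrophosphate through squalene to lanosterol rose. Fdft1, the squalene synthase, had 14093 normalized counts in 4N livers and 7923 in WT livers (0.83, SE 0.21, adjusted p = 0.0014, authors' deposited table). Sqle, the squalene epoxidase and a rate-limiting enzyme of the pathway, had 10808 in 4N livers and 5646 in WT livers (0.94, SE 0.20, adjusted p = 8.0e-05, authors' deposited table). Lss, the lanosterol synthase that closes the sterol rings, had the largest estimate of the 18 enzymes. Its level was 22802 in 4N livers and 5410 in WT livers, 4.22-fold higher, with a 95% interval of 3.16-fold to 5.62-fold. The interval of Lss on the log2 scale (1.66 to 2.49) did not overlap those of Sqle (0.54 to 1.33) and Fdft1 (0.41 to 1.25). It overlapped those of Dhcr7 (1.39 to 2.27), Fdps (0.96 to 2.49), Mvd (0.95 to 2.14) and Pmvk (0.78 to 2.24). All 95% intervals given here use the normal distribution and would be wider with 3 degrees of freedom. Lss was also picked as the largest of the 18, so whether it differs from Sqle and Fdft1 was not tested.

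The enzymes between lanosterol and cholesterol were mixed, with 4 higher, 1 lower and 3 not called of 8, and a median log2 fold change of 0.69. Dhcr7, the reductase that makes cholesterol from its direct precursor, was at 10522 normalized counts in 4N livers and 2961 in WT livers (1.83, SE 0.22, adjusted p = 2.1e-14, authors' deposited table). Nsdhl, a dehydrogenase of sterol demethylation encoded on the X chromosome, was at 4982 in 4N livers and 2103 in WT livers (1.24, SE 0.21, adjusted p = 2.5e-07, authors' deposited table). Smaller rises were called for Cyp51, the lanosterol demethylase (0.84, SE 0.21), and for the sterol reductase Tm7sf2 (0.80, SE 0.26, adjusted p = 0.015), both per the authors' deposited table. Hsd17b7, the ketosteroid reductase that acts in the same demethylation sequence as Nsdhl and Msmo1, fell to 4107 normalized counts in 4N livers, against 7488 in WT livers (-0.87, SE 0.23, adjusted p = 0.0021, authors' deposited table). It is also known to convert estrone to estradiol. Its call ended after recentring on secreted plasma proteins (-0.31, adjusted p = 0.31, with 0.00093 to 1 over the alternatives). No call was made by the authors' deposited table for Msmo1, the methylsterol oxidase (0.47, SE 0.27), for Ebp, the sterol isomerase (0.59, SE 0.29), or for Sc5d, the sterol desaturase (0.37, SE 0.28). Their adjusted p-values were 0.27, 0.18 and 0.44, and the 95% interval of Sc5d ran from -0.17 to 0.91, which does not exclude a rise of the size seen for Cyp51.

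**Figure D2:**
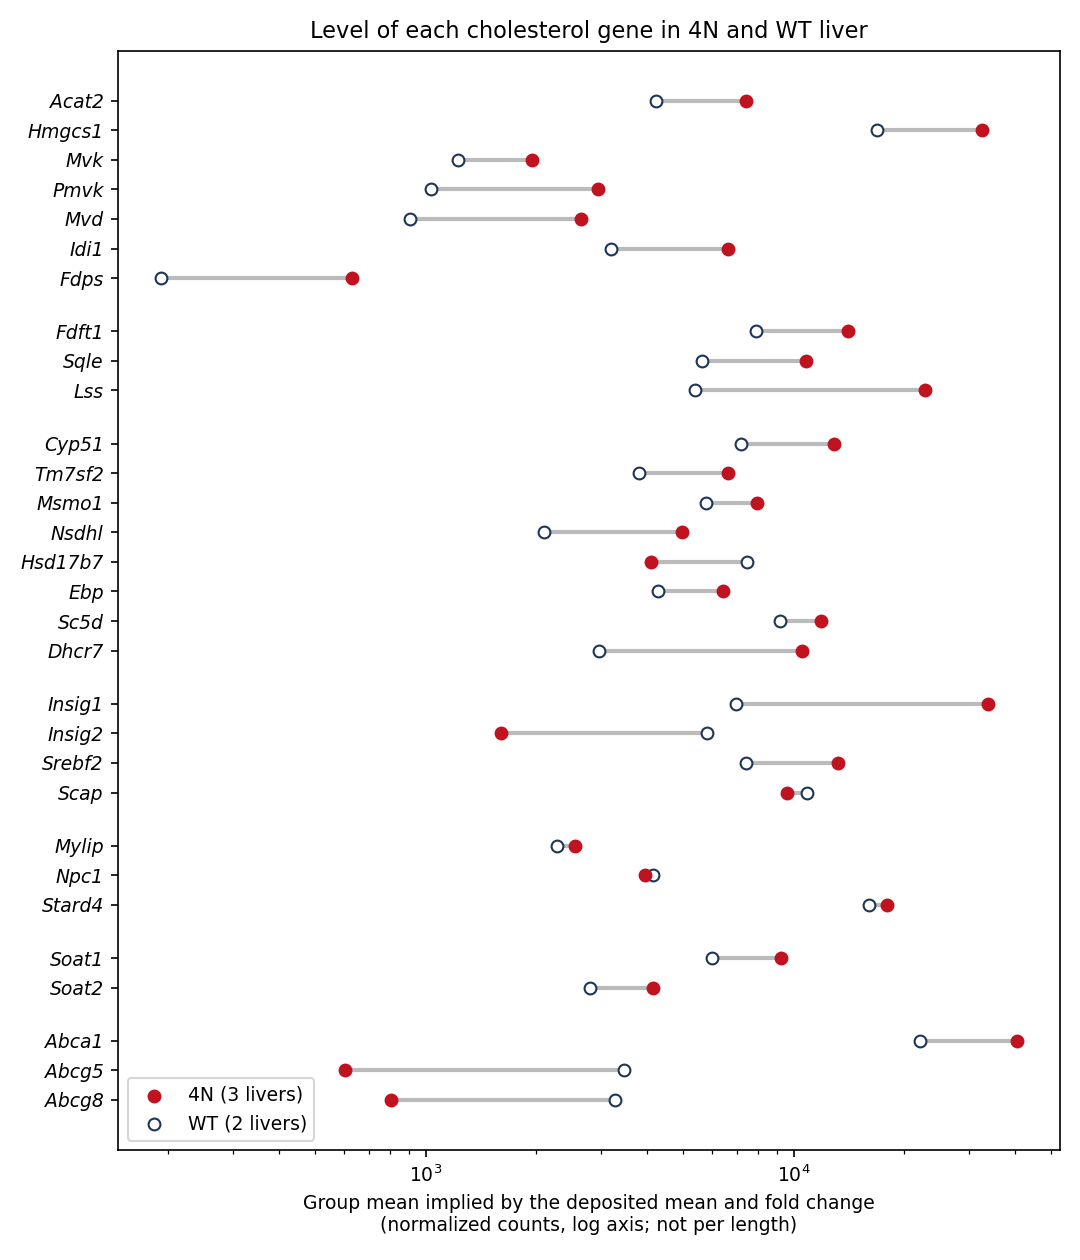
Level of each cholesterol gene in 4N livers (filled, 3 livers) and WT livers (open, 2 livers), in normalized counts on a log axis, calculated from the deposited mean and fold change. The 4N point lies right of the WT point for 17 of 18 synthesis enzymes, and left of it for Hsd17b7, Insig2, Scap, Npc1, Abcg5 and Abcg8. Levels are not per length, so genes should not be ranked against each other.

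Markers of some cell types also differed between the groups. Their counts stand beside 7.94% higher and 7.41% lower of all genes. For genes whose mean reached 1000, these shares were 11.9% and 10.3%. All 11 erythroid markers measured rose, with a summed level of 3336830 normalized counts in 4N livers and 974720 in WT livers, and all 8 markers of dividing cells rose, with sums of 239100 in 4N livers and 118633 in WT livers. Of 10 hepatocyte markers 0 rose and 2 fell, with sums that differed by a ratio of 1.00 (4N over WT), and albumin (Alb) was at 0.01 (SE 0.22, authors' deposited table). Of the 25 secreted plasma proteins used for recentring, known products of hepatocytes, 0 rose and 13 fell. Their median log2 fold change was -0.55 and their ratio of sums 0.91 (4N over WT). These 25 include all of the 10 hepatocyte markers except Serpina1a, so the lists are not independent. Of 12 markers of macrophages and Kupffer cells, 5 rose and 1 fell (sums of 48011 in 4N livers and 35500 in WT livers). Of 8 stellate markers 3 rose and 1 fell, with sums of 83845 in 4N livers and 48328 in WT livers. Fewer calls were made for endothelial markers (0 higher, 1 lower of 8, sums of 32677 in 4N livers and 38202 in WT livers), for bile duct markers (1 higher, 1 lower of 8, sums of 5884 in 4N livers and 4999 in WT livers) and for granulocyte markers (0 of 8, sums of 204382 in 4N livers and 187793 in WT livers). Among the bile duct markers, Cftr and Sctr were near 0, with means of 12.3 and 12.1 normalized counts. The others had means from 235 (Krt7) to 2305 (Onecut1). The called ones went opposite ways, Onecut1 up (1.42, SE 0.31) and Spp1 down (-1.05, SE 0.31), in the authors' deposited table. The part of these cells in the changes of the cholesterol genes was not tested. In whole liver, more cells of a type and more RNA per cell cannot be told apart.

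As 13 of the 18 synthesis enzymes were called higher, the promoters of the cholesterol genes were searched for the sterol regulatory element bound by SREBP and for the CCAAT box bound by NF-Y, a factor known to act with it. RefSeq promoters of GRCm38.p6, 250 bases before to 50 after each annotated start, held 24 of the 30 genes, without Fdps, Fdft1, Sqle, Npc1, Stard4 and Soat2. The element was searched as TCACNNCAC on both strands, with any start of a gene counted. It was found in 4 of the 15 synthesis genes with a promoter (26.7%), in 0 of the 4 sensing genes and in 0 of the 5 uptake, esterification and export genes, against 4.37% of all 27025 genes of the table. A stricter form, TCACNCCAC, was held by Hmgcs1 alone among the 24 (1.44% of all genes), and a looser one, TCACNNNAC, by 5 synthesis genes and Insig1 (12.7% of all genes). CCAAT on either strand was found in 14 of the 15 synthesis genes, against 41.1% of all genes and 43.0% of those whose mean reached 1000. It was also found in 3 of 4 sensing genes and in 4 of 5 uptake, esterification and export genes. The 4 synthesis promoters with the element are shown for the letters themselves, 5′ to 3′ in the direction of the gene, with the element and each CCAAT or its complement ATTGG in capitals. In Msmo1 the 2 motifs overlap by 1 base. For Dhcr7 and Msmo1 only 30 bases are shown, because these lie within an annotated exon of another start. The CCAAT counted for Dhcr7 lies at another annotated start than its element.
Hmgcs1, chr13:119690151-119690350, plus strand: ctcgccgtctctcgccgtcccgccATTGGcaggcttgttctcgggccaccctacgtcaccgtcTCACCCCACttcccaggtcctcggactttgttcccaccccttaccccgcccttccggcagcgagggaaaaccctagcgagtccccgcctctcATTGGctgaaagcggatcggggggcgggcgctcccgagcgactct
Dhcr7, chr7:143823259-143823288, plus strand: ggaaaagggcTCACTTCACcttatagctca
Msmo1, chr8:64733651-64733680, minus strand: cacggaCCAATCACTGCACggcgaaggcag
Hsd17b7, chr1:169969242-169969405, minus strand: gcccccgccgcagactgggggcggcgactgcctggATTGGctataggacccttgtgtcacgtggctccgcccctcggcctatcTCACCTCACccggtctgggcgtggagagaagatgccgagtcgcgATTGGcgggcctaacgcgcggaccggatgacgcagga
The element began 137 bases before the start in Hmgcs1, 130 in Dhcr7, 92 in Msmo1 and 117 in Hsd17b7. These 4 genes did not share a direction. Hmgcs1 and Dhcr7 were higher in 4N liver, Msmo1 did not pass the test and Hsd17b7 was lower. A match describes letters in this window and shows neither binding nor its absence.

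The sensing genes included the largest rise and a large fall among the 30 genes, and the 2 INSIG paralogs went opposite ways. Insig1, itself a target of SREBP, had 33767 normalized counts in 4N livers and 6984 in WT livers (2.27, SE 0.29, adjusted p = 1.5e-13, authors' deposited table). Insig2, whose main liver transcript is known in mice to be lowered by insulin, had 1600 in 4N livers and 5819 in WT livers (-1.86, SE 0.24, adjusted p = 3.2e-13, authors' deposited table). Insig1 was thus 4.84-fold higher and Insig2 3.64-fold lower, with 95% intervals of 1.71 to 2.83 and -2.33 to -1.40 on the log2 scale. Per kilobase of the longest principal transcript, the 4N livers had 12520 normalized counts of Insig1 and 593 of Insig2, whereas the WT livers had 2589 and 2157. The paralogs were therefore near each other in level in WT livers and far apart in 4N livers, as the plot of levels shows without the length scaling.

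Srebf2, which encodes SREBP2 and is known to raise its own transcription, was higher, with 13223 normalized counts in 4N livers and 7426 in WT livers (0.83, SE 0.22, adjusted p = 0.0016, authors' deposited table). Scap, the escort protein gene, did not pass, at 9587 in 4N livers and 10887 in WT livers (-0.18, SE 0.28, adjusted p = 0.76, authors' deposited table), and its sign turned after recentring on secreted plasma proteins (0.37). Its 95% interval ran from -0.72 to 0.36, below the estimate for Srebf2.

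**Figure D3:**
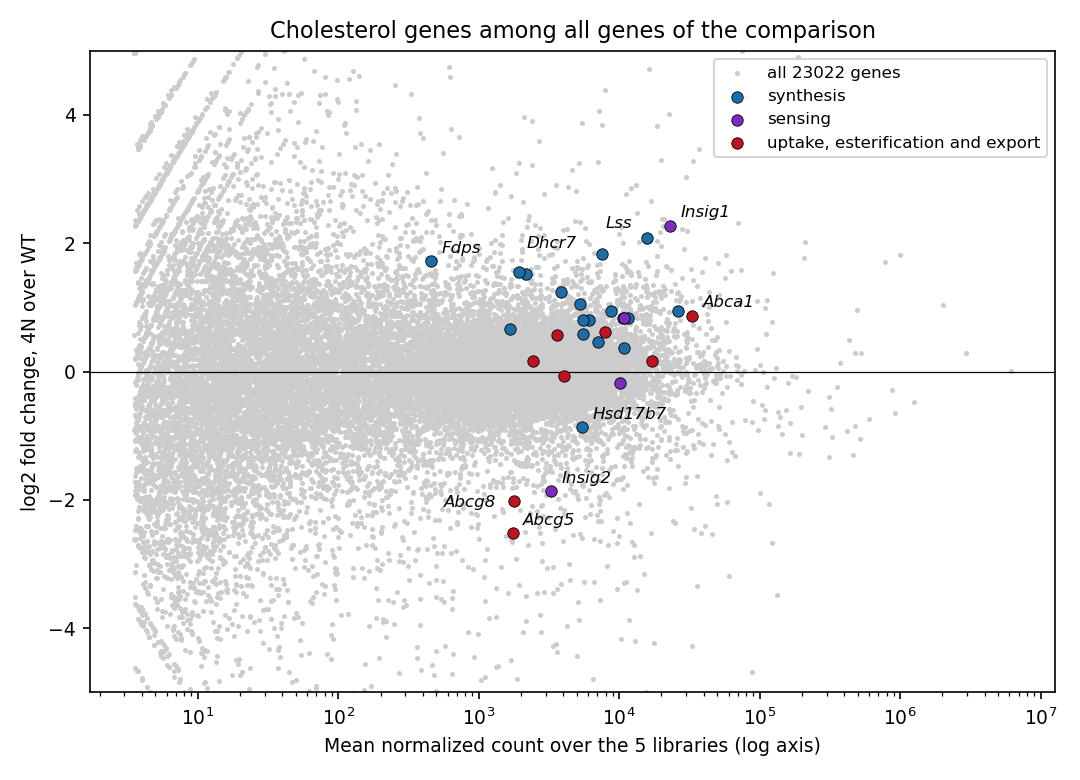
Mean normalized count over the 5 libraries (log axis) against log2 fold change, 4N over WT liver, for all 23022 genes (grey) and the 30 cholesterol genes (coloured by role). The 1004 genes beyond 5 in either direction are outside the frame. Insig1, Lss and Dhcr7 lie highest of the coloured points, at 2.27, 2.08 and 1.83, and Abcg5, Abcg8 and Insig2 lowest, at -2.52, -2.02 and -1.86.

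Genes of uptake and intracellular transport had log2 fold changes between -0.07 and 0.16, and 0 of 3 were called. Mylip, the ubiquitin ligase that degrades lipoprotein receptors, was at 2548 normalized counts in 4N livers and 2273 in WT livers (0.16, SE 0.25, 95% interval -0.32 to 0.65). Npc1, which moves cholesterol out of lysosomes, was at 3953 in 4N livers and 4144 in WT livers (-0.07, SE 0.26). Its exons overlap those of Rmc1 on the opposite strand, a gene that rose (1.07, SE 0.20), and after recentring on secreted plasma proteins the value of Npc1 turned to 0.49. Stard4, a soluble sterol carrier and a known SREBP2 target, was at 17923 in 4N livers and 16050 in WT livers (0.16, SE 0.21). All of these SEs and fold changes are from the authors' deposited table. The upper bound of the 95% interval for Stard4 (-0.26 to 0.58) lay below the estimates of the 13 synthesis enzymes called higher. The lowest of these was 0.80 for Tm7sf2. The interval still overlapped those of several of them, such as Tm7sf2 (0.30 to 1.30) and Fdft1 (0.41 to 1.25). It also covered the estimates of the uncalled enzymes Msmo1 (0.47) and Sc5d (0.37). As the 13 were picked by their calls, this does not show a difference between Stard4 and the synthesis enzymes.

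Of the esterifying enzymes, Soat1, which acts in most tissues, was called higher, with 9219 normalized counts in 4N livers and 5986 in WT livers (0.62, SE 0.20, adjusted p = 0.013, authors' deposited table). Soat2, the isoform of hepatocytes and enterocytes, had a similar estimate with a wider error, at 4149 in 4N livers and 2799 in WT livers (0.57, SE 0.34, adjusted p = 0.29, authors' deposited table). The 95% intervals of 0.24 to 1.01 for Soat1 and -0.09 to 1.23 for Soat2 overlapped over most of their length, so the call on one and not the other does not show a difference between them.

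Of the 3 exporters, 1 was called higher, 1 lower and 1 did not pass. Abca1, which loads cholesterol onto apolipoproteins at the cell surface, was higher, with 40438 normalized counts in 4N livers and 22063 in WT livers (0.87, SE 0.25, adjusted p = 0.0053, authors' deposited table). Its call ended in the test against a 1.5-fold change. Abcg8, which with Abcg5 forms the transporter that secretes sterols into bile, was lower, with 807 in 4N livers and 3265 in WT livers (-2.02, SE 0.40, adjusted p = 1.5e-05, authors' deposited table). Abcg5 had 604 normalized counts in 4N livers and 3464 in WT livers, a larger estimated fall that did not pass the test (-2.52, SE 1.03, adjusted p = 0.081, authors' deposited table). The SE of Abcg5 was far above the median of 0.24 for genes whose mean reached 1000, of which 95% had an SE under 0.34. Its 95% interval, -4.54 to -0.49, covered the whole of that of Abcg8, -2.81 to -1.23. The intervals of Abca1 (0.38 to 1.36) and Abcg8 did not overlap.

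Abcg5 and Abcg8 lie head to head on chromosome 17. In the RefSeq annotation of GRCm38.p6 their nearest starts are separated by 109 bases, shown here because both genes read outward from them, 5′ to 3′ on the plus strand, the strand of Abcg8. No CCAAT lies within these 109 bases on either strand, so they hold no capitals. One lies directly beside the stretch, beginning 114 bases before the Abcg8 start and lying at the Abcg5 start, and was counted above.
Abcg5-Abcg8, chr17:84683012-84683120, plus strand: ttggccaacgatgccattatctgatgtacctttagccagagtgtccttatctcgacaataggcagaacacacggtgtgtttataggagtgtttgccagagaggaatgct
Another annotated start of Abcg8 puts some of its exon bases over those of Abcg5 on the other strand, so part of the reads of this pair cannot be assigned to one of them without strand.

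Close relatives of the synthesis enzymes were looked up after the values were seen. Acat3, a mouse neighbour and close copy of Acat2, was lower, with 2233 normalized counts in 4N livers and 6059 in WT livers (-1.44, SE 0.20, adjusted p = 1.2e-10, authors' deposited table), opposite to Acat2. Reads shared between such copies make both values uncertain. Ebpl, a relative of Ebp with no known isomerase activity, stood at 1192 in 4N livers and 4365 in WT livers (-1.87, SE 0.24, adjusted p = 8.3e-13, authors' deposited table). The mitochondrial thiolase gene Acat1 did not pass (-0.56, SE 0.27, adjusted p = 0.17), nor did the pseudogenes Idi1-ps1 (0.07, SE 0.85) and Idi1-ps2 (-1.54, SE 0.67), in the authors' deposited table. Idi2, a relative of Idi1, was called lower at a mean of 16.2 normalized counts.

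Of 6 related gene lists, that of fatty acid synthesis had a positive median above 0.1 and the others did not. Their counts stand beside 7.94% higher and 7.41% lower of all genes. For genes whose mean reached 1000, these shares were 11.9% and 10.3%. Enzymes that use the isoprenoid intermediates for prenylation, dolichol and ubiquinone had 0 higher and 2 lower of 13, with a median log2 fold change of -0.25. Those lower were Rabggta, a subunit of the enzyme that prenylates Rab proteins (-1.02, SE 0.24), and Icmt, which methylates prenylated proteins (-0.62, SE 0.21), in the authors' deposited table. Genes of SREBP processing and reductase turnover had 2 higher and 1 lower of 13 (15.4% and 7.69%, median 0.03). These counts set the list little apart from the shares above. The called genes were Rnf145, a ubiquitin ligase of sterol control (0.85, SE 0.21), and Tmem97, a sterol-regulated membrane protein (0.64, SE 0.21). The lower one was Pgrmc1, a heme-binding partner of cytochromes P450 (-1.04, SE 0.20). These values are from the authors' deposited table.

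Receptors and lysosomal genes had 2 higher and 3 lower of 14 (14.3% and 21.4%, median -0.05). The lysosomal sterol carrier Npc2 rose (0.61, SE 0.22), while the lysosomal acid lipase gene Lipa (-1.37, SE 0.23), the sterol transfer gene Gramd1c (-2.50, SE 0.31) and the lipoprotein receptor gene Vldlr (-0.88, SE 0.30) fell, in the authors' deposited table. LXR and export partners had 2 higher and 1 lower of 10 (median 0.04). Abcg1, which exports cholesterol to mature lipoprotein particles, rose (0.86, SE 0.22), as did the phospholipid transfer protein gene Pltp (0.81, SE 0.23), whereas Abcb4, the phospholipid flippase of the bile canaliculus, fell (-0.84, SE 0.22), in the authors' deposited table. The other 7 genes of this list did not pass. Among genes whose mean reached 1000, 11.9% were higher and 10.3% lower, so these counts set the list little apart.

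Oxysterol and bile acid outlets had 1 higher and 2 lower of the 7 measured (14.3% and 28.6%, median -0.66). Cyp7a1, the rate-limiting enzyme of bile acid synthesis, rose to 5306 normalized counts in 4N livers, against 3049 in WT livers, whereas Cyp39a1, an oxysterol hydroxylase, fell (-1.96, SE 0.29), as did Akr1d1, the bile acid reductase (-2.20, SE 0.22), in the authors' deposited table. Fatty acid genes under SREBP control had 9 higher and 2 lower of 14, with a median of 1.59. The acyltransferase gene Gpam rose (1.80, SE 0.19) and the elongase gene Elovl5 fell (-1.69, SE 0.20), in the authors' deposited table. The desaturase genes Scd1 (4.71) and Scd2 (4.28) led the list in the authors' deposited table, further from 0 than any of the 30 cholesterol genes.

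**Figure D4:**
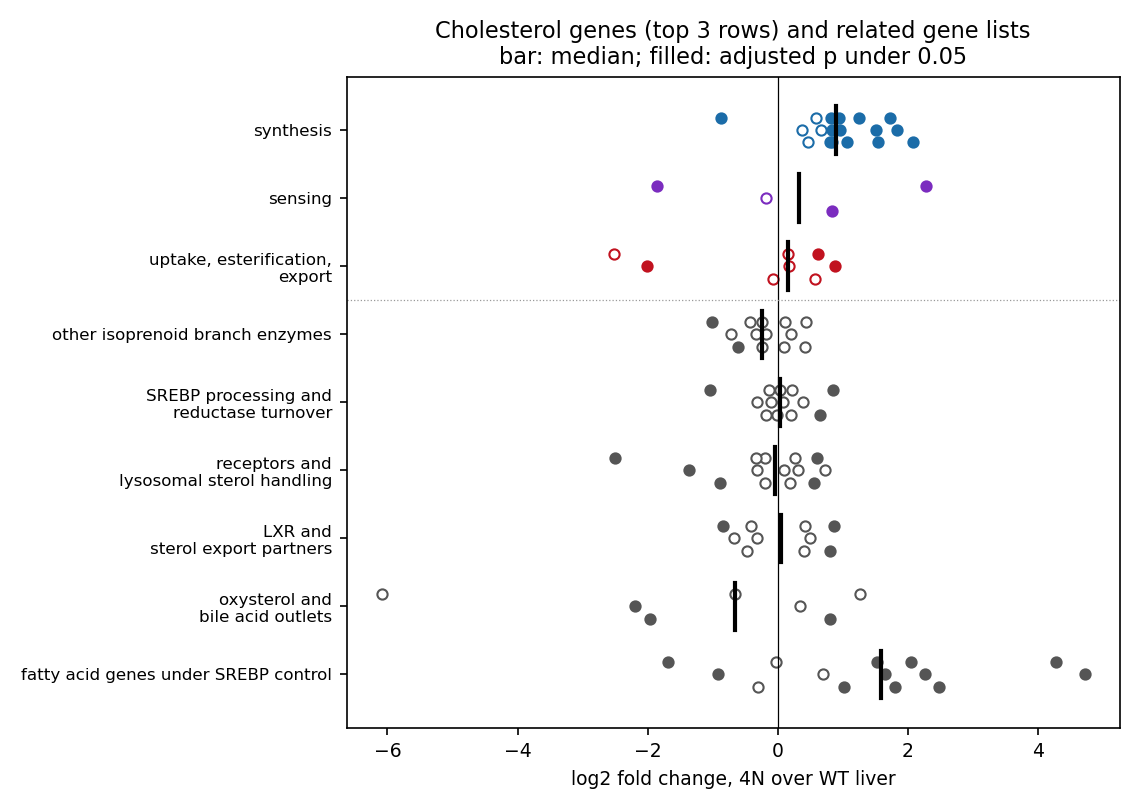
Log2 fold change, 4N over WT liver, of the cholesterol genes (top 3 rows) and of 6 related gene lists, 1 point per gene, with the median as a bar and filled points for an adjusted p under 0.05. The medians of synthesis (0.89) and of fatty acid genes (1.59) lie to the right of 0, and those of the isoprenoid branch (-0.25) and of oxysterol and bile acid outlets (-0.66) to the left.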

How the data were processed

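Poly(A)-selected libraries of 3 4N and 2 WT livers were sequenced, per the labels' protocols. Reads were placed on GRCm39, per the submitters' processing notes. Which aligner, counter and test tool were used is not given in the sources used here. As values, the authors deposited 1 comparison table, whose column names are those of DESeq2. It holds the mean signal (normalized count over all libraries), the log2 fold change with its SE, the Wald statistic (a score) and p-values with adjusted p-values, per the file headers. Recomputed within 1%, the p-values followed from a normal reference, 2-sided, for all 23022 genes, and the adjusted p-values from the Benjamini-Hochberg method over all of them.

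The table names no numerator. Genes with no reads in one group sit at a fixed distance between fold change and mean that depends on the size of the other group. The distance was larger by 0.67 for negative values, where 0.58 is expected if positive means higher in 4N and -0.58 if the reverse. The genes were picked by a window of this distance, set higher for negative values than for positive ones. That choice fixed the sign of the gap in advance, so the gap cannot decide the direction. Of the genes so picked, 12 negative and 0 positive ones had an SE below 1.44, the limit if the empty group held 2 libraries. That these genes had no reads in one group was inferred from the windows, so the direction is not certain.

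The 30 genes and all lists were chosen with earlier results of these data known. Named genes were all 30, and in each related list up to 4 called genes with the smallest adjusted p. Gene overlaps and transcript lengths came from GENCODE M21 (GRCm38). The call and recentring steps were run on simulated data, drawn from a normal distribution with the deposited SEs. That run shares the normal reference of the calls, so it cannot judge that reference against a t distribution. Only the calls of the main setting were checked in it. Alternatives were a threshold of 0.01, a t distribution with 3 degrees of freedom, a test against a 1.5-fold change, a minimum mean of 50, and recentring on genes whose mean reached 10000 or on 25 secreted plasma proteins. The software was scipy 1.17.1, pandas 2.3.3, numpy 2.4.6 and matplotlib 3.10.9 under Python 3.11.15.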

Additional observations from a re-analysis of the deposited data

How the results depend on the processing

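A minimum mean of 50 and recentring on genes whose mean reached 10000 kept the call and sign of all 30 genes. With 3 degrees of freedom, 0 genes of the table and so 0 of the 30 passed, synthesis, sensing and export included, although 2513 genes, 19 of the 30 among them, had an unadjusted p under 0.05. Against a 1.5-fold change, 4 synthesis genes were higher (Mvd, Lss, Nsdhl, Dhcr7) and 0 lower, 1 sensing gene was higher (Insig1), and 0 of the uptake, esterification and export genes were higher, while Insig2 and Abcg8 stayed lower. Over the whole table, 521 of 23022 genes were higher and 588 lower in that test. At an adjusted p under 0.01, 1 of the 8 uptake, esterification and export genes was higher. Over the whole table, genes called higher went from 1828 to 6464 of 23022 on recentring on secreted plasma proteins, and those lower from 1705 to 875. This recentring raised every log2 fold change by 0.55, so that 88.1% of all calls were higher against 51.7%. It moved the medians to 1.44 for synthesis and 0.72 for uptake, esterification and export, gave 17 synthesis genes higher and 0 lower and 5 of the 8 others higher, and turned Scap (0.37) and Npc1 (0.49). Leaving out single livers was not run, since the table has no values of single libraries. No paired analysis was possible because the groups share no replicate number. Depth per library is unknown, so its part in the wide error of Abcg5 was not tested.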
